A study of Mus musculus with 16 samples.

Results

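Cells that signal through the RAS-ERK pathway limit that signal with genes the pathway itself turns on. Of the 32285 mouse genes in the single-cell count matrices, 10 are described here, chosen by name as ERK feedback inhibitors and a target of the pathway that is itself an ETS transcription factor. Dusp4, Dusp5 and Dusp6 encode phosphatases that remove phosphate from MAP kinases. Spry1, Spry2 and Spry4 encode Sprouty proteins, and Spred1 and Spred2 encode Sprouty-related proteins, which act early in the pathway. Il17rd, also called Sef, encodes a membrane protein that restrains FGF receptor signaling, and Etv5 encodes an ETS factor. Because these transcripts follow pathway activity, they are widely read as its output in osteoblasts, which answer to FGFs, and in macrophages, which depend on a receptor tyrosine kinase for colony-stimulating factor.

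Bone marrow stromal cells of 12-week-old male C57BL/6J littermates were cultured for 21 days in osteogenic medium with 10 mM β-glycerophosphate. All 4 genotypes carried Fgf23 with loxP sites on both alleles. WT cells had intact Dmp1 and no Cre, Fgf23cKO cells had intact Dmp1 and Cre driven by the Dmp1 promoter, Dmp1KO cells had both Dmp1 alleles deleted in every cell and no Cre, and Dmp1KO/Fgf23cKO cells lacked Dmp1 and carried the Cre. The Cre acts only in cells in which the Dmp1 promoter has been active, typically late osteoblasts and osteocytes. Each genotype had 3 tagged cultures, pooled into 1 droplet reaction per genotype, so that genotype and reaction cannot be told apart, and a further sample of untagged cells from the same pool. The counts of the first Dmp1KO culture were not used here, which left n = 2 tagged cultures for Dmp1KO and n = 3 for each other genotype. Nothing in the labels ties a culture to an animal, so p values measure the spread between cultures of 1 pool.

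The matrices held 17793 cells in 15 samples, of which 14577 were tagged. No barcode was shared between samples of a genotype, and 44 barcodes occurred in more than 1 genotype. Dmp1 had 3530 UMIs (unique molecular identifiers, counts of single transcripts) in WT, 4665 in Fgf23cKO, 5 in Dmp1KO and 175 in Dmp1KO/Fgf23cKO. Fgf23 had 9, 10, 2 and 1, and a 3′ count may lie outside the deleted part. Why Dmp1KO and Dmp1KO/Fgf23cKO, which both lack Dmp1, differ in Dmp1 UMIs was not tested. The cells fell into 21 clusters, made without these and other genes of the pathway, 52 in all. From their markers, 7 clusters were called macrophage-like and 3 stromal, the latter led by Mgp, Grem1 and Tagln (cluster 8), Timp3, Col3a1 and Ebf1 (cluster 12) and the osteoblast genes Ibsp and Bglap (cluster 13). Counts were summed per culture and class. Macrophage sums held 247 to 1838 cells and 5312303 to 47565057 UMIs. Stromal sums held 41 to 124 cells and 1072061 to 6601308 UMIs. Levels are CPM, counts per 1e6 UMIs of a sum. The cells that make up the macrophage class differed between genotypes: 72.7% were in cluster 1 in WT, 59.8% in cluster 0 and 25.9% in cluster 3 in Fgf23cKO, 82.5% in cluster 0 in Dmp1KO/Fgf23cKO, and 31.7%, 20.7%, 19.3% and 18.8% in clusters 4, 3, 0 and 7 in Dmp1KO. The median macrophage-like cell held 7046 UMIs in WT, 35227 in Fgf23cKO, 22004 in Dmp1KO and 35179 in Dmp1KO/Fgf23cKO.

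On mm10 the genes lie at chr8:34807297-34819894 (Dusp4), chr19:53529109-53542431 (Dusp5), chr10:99263231-99267489 (Dusp6), chr3:37639947-37644598 (Spry1), chr14:105891947-105896819 (Spry2), chr2:117121374-117182279 (Spred1), chr11:19924375-20024026 (Spred2), chr16:22381309-22439719 (Etv5) and chr14:27038941-27107286 (Il17rd). ETS factors bind DNA around a GGAA core. The windows upstream of the genes were searched for GGAAGT and CCGGAAGT, longer motifs that hold it, because several of the genes moved together. The GGAA core alone was not searched for and is not marked. Windows from 250 bases before to 50 bases after the start, from RefSeq on GRCm38.p6, were found for 8 of the 10 genes, with 2 windows for Etv5. None was used for Dusp4 and Spry4. GGAAGT on either strand lay in the windows of Dusp5, Spred2 and Etv5, and in 23.8% of all 32851 windows. CCGGAAGT lay in 3.89% of all windows and in none of these. The stretches below are those with a match upstream of the start, and that just before the start of Dusp6, the gene with the largest decrease in Dmp1KO macrophage-like cells, which had no match. Capitals mark GGAAGT or its reverse complement ACTTCC, and sequences read 5′ to 3′ along the strand of the gene. The Dusp5 and Dusp6 stretches lie outside the annotated genes, that of Spred2 in an exon and that of Etv5 in an intron, before a RefSeq start that lies inside the gene.
Dusp5, chr19:53528925-53528984, plus strand: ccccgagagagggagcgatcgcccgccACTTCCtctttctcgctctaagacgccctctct
Dusp6, chr10:99263171-99263230, plus strand: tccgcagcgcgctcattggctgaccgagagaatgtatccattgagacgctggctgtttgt
Spred2, chr11:19924397-19924426, plus strand: cgcttccgccctACTTCCtcctcctgttgg
Etv5, chr16:22438568-22438597, minus strand: tgggaattgggtGGAAGTgtgtcttgtttt

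The first question was which lineage holds these transcripts. Macrophage-like and stromal cells of the same cultures shared them unequally. Dusp4, Dusp6, Spry2, Spred1, Spred2 and Etv5 were higher in macrophage-like cells, and Spry1, Spry4 and Il17rd were far higher in stromal cells. Thus 6 of the 10 genes were higher and 3 lower in macrophage-like cells at an adjusted p under 0.1 (edgeR quasi-likelihood test, Benjamini-Hochberg over 14620 genes, with each culture as a block), where 40.1% of all genes tested were higher and 42.9% lower. With cells thinned to 1300 UMIs each, which puts all cells at equal depth, only Dusp6, Etv5, Spred1 and Spred2 still passed the filter on low counts, and these 4 were called higher in macrophage-like cells. The share of all genes called after thinning is not given here. Most genes of the transcriptome differed between the classes, so the sizes of the differences say more than their number.

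**Figure D1:**
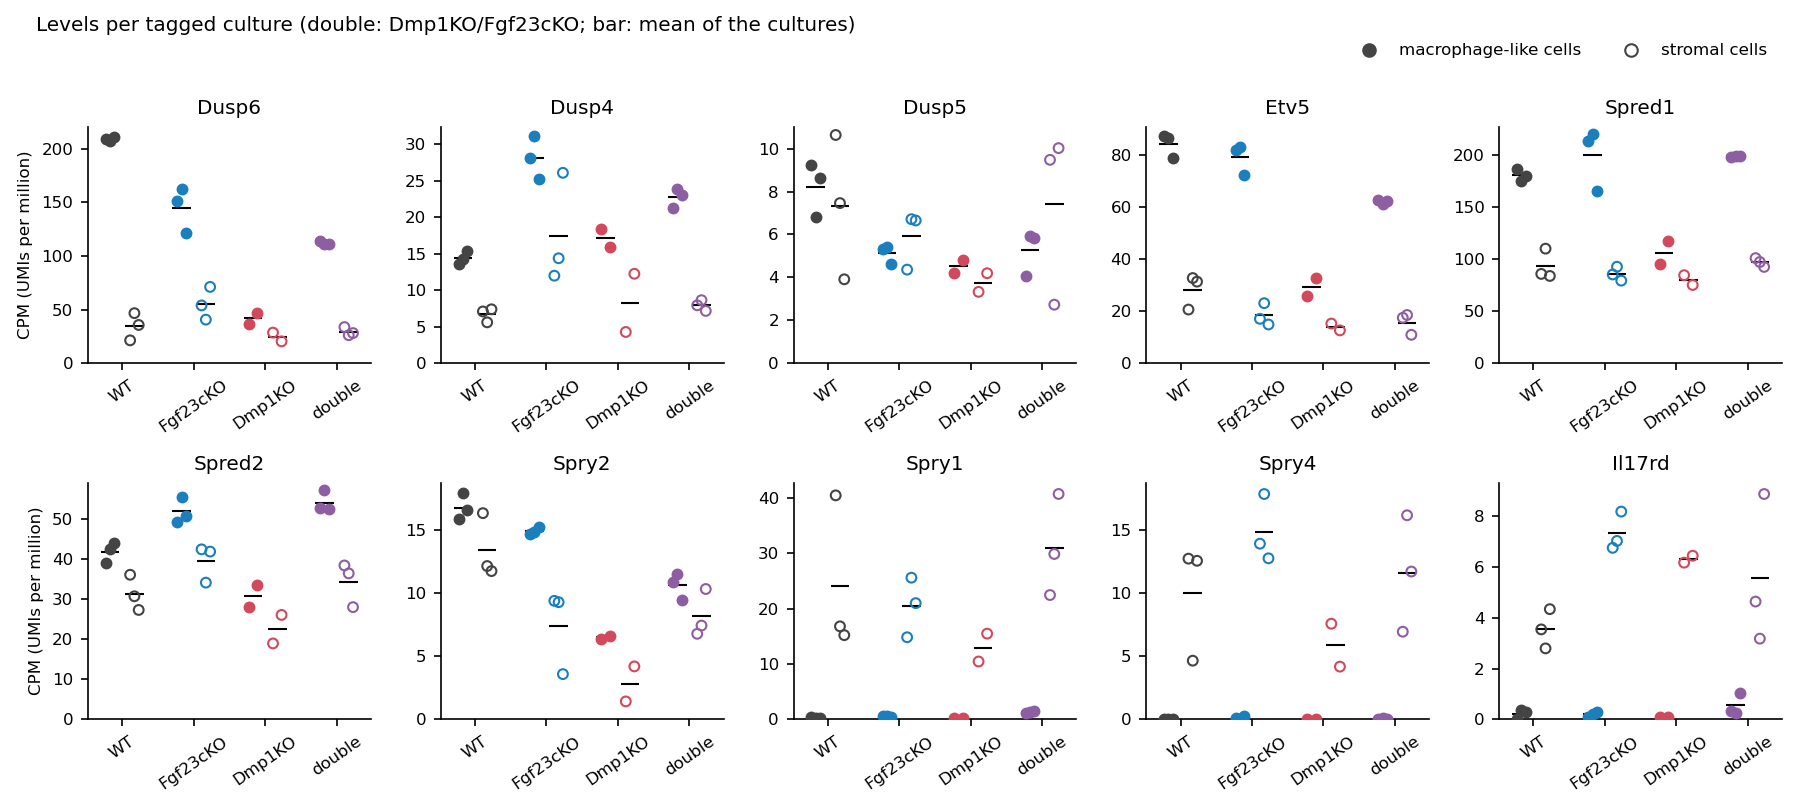
Level of each of the 10 genes in CPM (vertical axis, each panel with its own scale starting at 0) in each tagged culture, by genotype (horizontal axis), in macrophage-like cells and in stromal cells, with bars for the mean. Dusp6 in macrophage-like cells lies between 207 and 211 CPM in WT and at 36.2 and 47.2 CPM in Dmp1KO, and Spry1, Spry4 and Il17rd stay near 0 in macrophage-like cells.

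The phosphatase gene Dusp6 was higher in macrophage-like cells by 1.91 on the log2 scale (SE 0.18, adjusted p = 1.1e-07), and Etv5 by 1.91 (SE 0.12, adjusted p = 8.6e-10). Dusp4, a nuclear phosphatase, was higher by 1.26 (SE 0.16, adjusted p = 3.9e-06). Spred1 was higher by 1.10 (SE 0.08), Spry2 by 0.77 (SE 0.17) and Spred2 by 0.64 (SE 0.08). Dusp5, another nuclear phosphatase, differed by 0.09 (95% interval -0.32 to 0.50, adjusted p = 0.708). The difference of Dusp6 was largest in WT (2.67, SE 0.23), followed by Dmp1KO/Fgf23cKO (2.09, SE 0.20), Fgf23cKO (1.52, SE 0.20) and Dmp1KO (1.16, SE 0.27). Spry2 was not called in WT alone (0.37, 95% interval -0.17 to 0.92).

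Spry4 had 410 UMIs in the stromal cells of all tagged cultures, 11.7 CPM (95% interval 10.6 to 12.9), and 9 UMIs in macrophage-like cells, 0.0449 CPM (0.0205 to 0.0852), a 262-fold higher pooled level in stromal cells. In WT macrophage-like cells it had 0 UMIs, which allows up to 0.113 CPM at 3 counts over the group, so that the stromal level there was at least 95.8-fold higher. Spry1 had 824 UMIs in stromal cells (23.6 CPM, 22.01 to 25.3) and 123 in macrophage-like cells (0.613 CPM, 0.510 to 0.732), 38.5-fold apart. Il17rd had 196 and 48 UMIs (5.61 and 0.239 CPM), 23.4-fold apart. Intervals of pooled counts are exact Poisson intervals and cover counting error only. The stromal and osteoblast markers, which define the other class, summed to 144 to 541 CPM in macrophage sums and to 35314 to 128220 CPM in stromal sums, and the part of stromal RNA in these low levels was not tested.

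**Figure D2:**
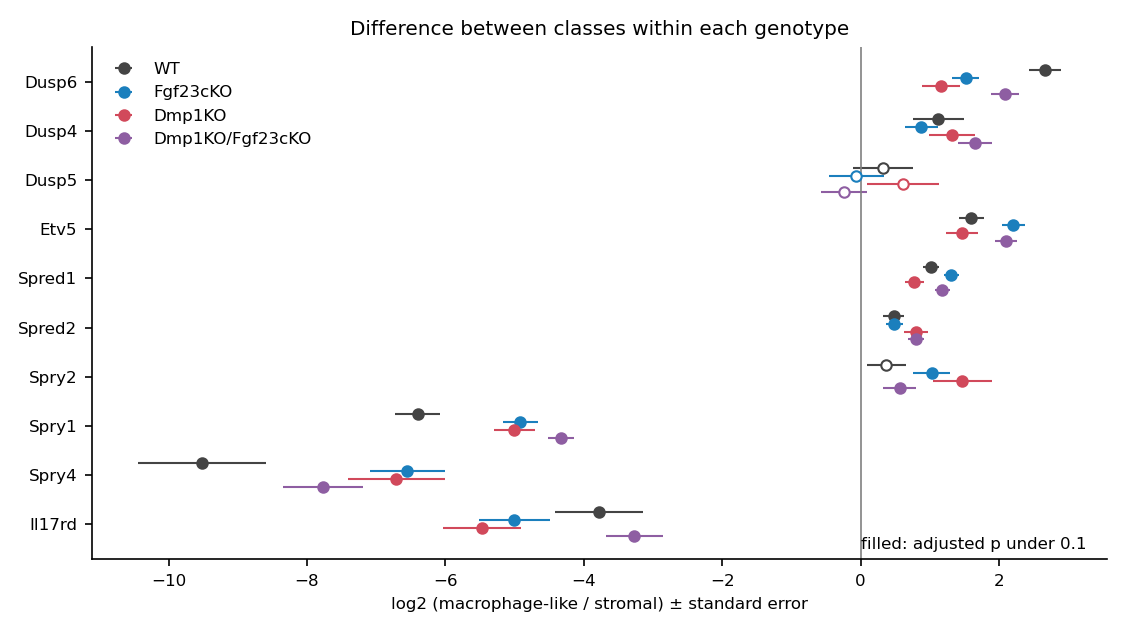
Log2 difference between macrophage-like and stromal cells within each genotype (horizontal axis, above 0 where higher in macrophage-like cells) for each of the 10 genes, with the standard error as a line and filled symbols for an adjusted p under 0.1. Spry1, Spry4 and Il17rd lie far to the left, and the WT value of Dusp6 (2.67) lies farthest to the right of its 4 genotypes.

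Within macrophage-like cells, Dmp1KO was the genotype with the lowest Dusp6, Etv5, Spry2 and Spred1. Compared with WT, 1 of the 8 genes tested was higher and 6 were lower, where 36.1% of the 13091 genes tested were higher and 34.4% lower. Spry4 and Il17rd did not pass the filter on low counts there. The share of genes called over the whole transcriptome was thus large too. The median log2 difference was -0.54 over these 8 genes and 0.00 over all genes. In Dmp1KO/Fgf23cKO compared with Dmp1KO, 6 genes were higher and 0 lower (30.8% and 37.8% of all genes), with a median of 0.55 against -0.05 over all genes. Compared with WT, Dmp1KO/Fgf23cKO had 3 genes higher and 4 lower (27.9% and 28.2% of all genes) and Fgf23cKO 3 higher and 2 lower (24.0% and 23.6%). The genotypes differed in depth (above), and with cells thinned to 1300 UMIs 6 of the genes were tested, without Spry1 and Dusp5. Dmp1KO then had 4 calls against WT (Dusp6, Etv5, Spry2 and Spred1, all lower), Dmp1KO/Fgf23cKO 4 (Dusp6, Etv5 and Spry2 lower, Spred2 higher) and Fgf23cKO 2 (Dusp4 and Spred2, both higher), and 4 genes were higher in Dmp1KO/Fgf23cKO than in Dmp1KO (Dusp6, Etv5, Spred1 and Spred2). The share of all genes called after thinning is not given here, so these counts cannot be set against it. The 3 comparisons with WT share the WT cultures, and the last comparison with Dmp1KO shares its cultures with 2 of them.

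**Figure D3:**
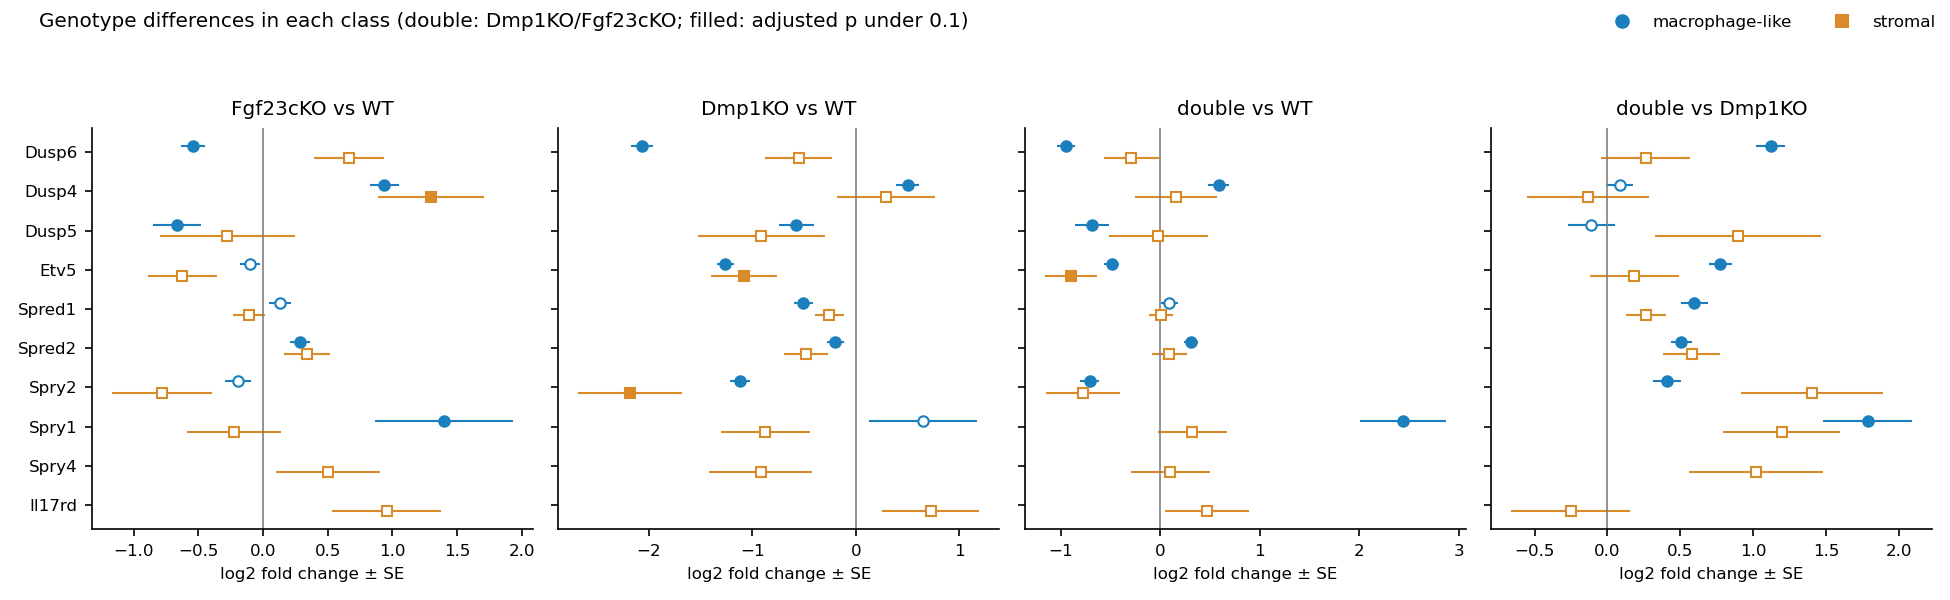
Log2 difference between genotypes (horizontal axis) of each gene in macrophage-like cells and in stromal cells, for the 4 comparisons, with the standard error as a line and filled symbols for an adjusted p under 0.1. In Dmp1KO compared with WT, Dusp6 lies at -2.06 in macrophage-like and -0.55 in stromal cells.

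Dusp6, which dephosphorylates ERK in the cytoplasm, stood at 209, 207 and 211 CPM in the WT cultures, 151, 162 and 121 CPM in Fgf23cKO, 36.2 and 47.2 CPM in Dmp1KO and 114, 111 and 111 CPM in Dmp1KO/Fgf23cKO. No genotype overlapped another, and the order was WT, Fgf23cKO, Dmp1KO/Fgf23cKO, Dmp1KO. It was lower than in WT by a log2 difference of -2.06 in Dmp1KO (SE 0.10, adjusted p = 1.0e-10), -0.95 in Dmp1KO/Fgf23cKO (SE 0.09, adjusted p = 3.2e-07) and -0.54 in Fgf23cKO (SE 0.09, adjusted p = 1.7e-04). It was higher in Dmp1KO/Fgf23cKO than in Dmp1KO by 1.12 (SE 0.10, adjusted p = 7.6e-08). With cells thinned to 1300 UMIs, 20.6 to 22.3% of WT cells held a Dusp6 UMI, 17.4 to 18.7% in Fgf23cKO, 5.95 and 7.09% in Dmp1KO and 11.5 to 12.9% in Dmp1KO/Fgf23cKO. Without thinning, the means of the cultures were 61.1, 84.4, 48.0 and 82.8%. Thinning left out 142 WT, 3 Fgf23cKO, 11 Dmp1KO and 2 Dmp1KO/Fgf23cKO cells, and with sums of thinned cells the difference of Fgf23cKO from WT was -0.26 (adjusted p = 0.167).

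Etv5, the ETS factor, had 87.0, 86.5 and 78.6 CPM in WT, 81.8, 83.0 and 72.0 CPM in Fgf23cKO, 25.8 and 32.5 CPM in Dmp1KO and 62.8, 61.0 and 62.0 CPM in Dmp1KO/Fgf23cKO. WT and Fgf23cKO overlapped, and the other genotypes lay apart below them. The log2 difference from WT was -1.26 in Dmp1KO (SE 0.08, adjusted p = 1.5e-09), -0.49 in Dmp1KO/Fgf23cKO (SE 0.07, adjusted p = 4.7e-05) and -0.10 in Fgf23cKO (95% interval -0.25 to 0.05), and it was 0.78 in Dmp1KO/Fgf23cKO compared with Dmp1KO (SE 0.08, adjusted p = 3.1e-07). At equal depth 10.2 to 11.2% of WT cells held an Etv5 UMI, 6.57 to 9.72% in Fgf23cKO, 3.44 and 4.24% in Dmp1KO and 8.40 to 8.79% in Dmp1KO/Fgf23cKO, so that all other genotypes lay below WT and Dmp1KO below the rest. Without thinning, the means of the cultures were 40.4, 78.6, 42.2 and 73.1%.

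Of the Sprouty genes, Spry2 followed a like order. Its level was 15.8, 17.9 and 16.6 CPM in WT, 14.6, 14.9 and 15.3 CPM in Fgf23cKO, 6.33 and 6.63 CPM in Dmp1KO and 10.9, 11.5 and 9.43 CPM in Dmp1KO/Fgf23cKO. Each genotype lay apart from the others, but the difference between Fgf23cKO and WT did not pass the test (-0.19, 95% interval -0.38 to -0.00, adjusted p = 0.129). Spry2 was lower than in WT by -1.12 in Dmp1KO (SE 0.10, adjusted p = 5.4e-08) and by -0.71 in Dmp1KO/Fgf23cKO (SE 0.09, adjusted p = 1.3e-05) on the log2 scale, and higher in Dmp1KO/Fgf23cKO than in Dmp1KO by 0.41 (SE 0.09, adjusted p = 0.0012). Spry1 rested on 6, 18, 27 and 72 UMIs in WT, Fgf23cKO, Dmp1KO and Dmp1KO/Fgf23cKO, at means of 0.252, 0.620, 0.303 and 1.33 CPM. It was called higher in Dmp1KO/Fgf23cKO than in WT (log2 2.44, SE 0.43, adjusted p = 2.0e-04) and than in Dmp1KO (1.79, SE 0.30, adjusted p = 8.5e-05). The summed stromal and osteoblast markers in the same macrophage sums ran in nearly the same order, at 242 to 273 CPM in WT, 370 to 389 CPM in Fgf23cKO, 144 and 148 CPM in Dmp1KO and 539.6 to 541 CPM in Dmp1KO/Fgf23cKO, and their part in the Spry1 result was not tested. The call of Spry1 in Fgf23cKO compared with WT (1.40, adjusted p = 0.0585) was lost without Fgf23cKO replicate 1 or 2 or WT replicate 2 or 3 (1.19 to 1.35).

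Of the Sprouty-related genes, Spred1 was lowest in Dmp1KO, while the place of Spred2 depended on depth. Spred1, a RAS inhibitor that works with neurofibromin, had 187, 175 and 180.2 CPM in WT, 95.1 and 117 CPM in Dmp1KO and 198, 199 and 199.5 CPM in Dmp1KO/Fgf23cKO. Dmp1KO lay below every other culture, with a log2 difference from WT of -0.50 (SE 0.10, adjusted p = 2.1e-04), and Dmp1KO/Fgf23cKO was 0.59 above Dmp1KO (SE 0.09, adjusted p = 3.7e-05). In Fgf23cKO, Spred1 had 213, 220.2 and 166 CPM, on both sides of WT. Spred2 was higher than in WT in Fgf23cKO (0.29, SE 0.08, adjusted p = 0.0081) and in Dmp1KO/Fgf23cKO (0.31, SE 0.07, adjusted p = 0.0026) and lower in Dmp1KO (-0.20, SE 0.08, adjusted p = 0.041), and the latter call was lost without Dmp1KO replicate 2 (-0.08), WT replicate 2 (-0.19) or WT replicate 3 (-0.16). At equal depth the sign of the latter turned (0.12, adjusted p = 0.593), and Spred2 had a UMI in a mean of 4.32% of WT and 4.34% of Dmp1KO cells.

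The remaining phosphatase genes did not share this order. Dusp4 was lowest in WT, with 13.6, 14.4 and 15.4 CPM, against 28.2, 31.1 and 25.3 CPM in Fgf23cKO, 18.4 and 15.9 CPM in Dmp1KO and 21.3, 23.9 and 23.0 CPM in Dmp1KO/Fgf23cKO. No genotype overlapped WT in CPM, and the log2 difference from it was 0.94 in Fgf23cKO (SE 0.11, adjusted p = 7.0e-06), 0.50 in Dmp1KO (SE 0.11, adjusted p = 8.3e-04) and 0.59 in Dmp1KO/Fgf23cKO (SE 0.11, adjusted p = 3.0e-04). At equal depth 0.888 to 2.20% of WT cells held a Dusp4 UMI and 3.81 to 4.05% in Fgf23cKO. The shares of Dmp1KO (1.40 and 2.51%) and Dmp1KO/Fgf23cKO (2.18 to 3.33%) overlapped WT. Only the call in Fgf23cKO remained with cells thinned to 1300 UMIs. Without clusters 4 and 7 the sign in Dmp1KO turned (below). Dusp5 was highest in WT, at 6.82 to 9.22 CPM, and 4.05 to 5.93 CPM in the cultures of the other genotypes, with log2 differences from WT between -0.57 and -0.69 and adjusted p values from 0.0033 to 0.0092. Dusp4 and Dusp5 did not differ past the threshold between Dmp1KO/Fgf23cKO and Dmp1KO (0.08, 95% interval -0.10 to 0.27, and -0.11, -0.43 to 0.20).

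Because the macrophage class is made of different clusters in each genotype, the same genes were also compared within clusters 0 and 3, the macrophage clusters with at least 10 cells in all 11 tagged cultures, a comparison that was added once the values were known. The difference of Dusp6 between Dmp1KO and WT did not pass the test in either cluster. Within cluster 0, which held 60 WT cells, Dusp6 had 133 to 190.1 CPM in the WT cultures, 173 to 193 CPM in Fgf23cKO, 135 and 138 CPM in Dmp1KO and 122 to 131 CPM in Dmp1KO/Fgf23cKO. The log2 difference between Dmp1KO and WT was -0.09 (SE 0.16, adjusted p = 0.834), and that between Dmp1KO/Fgf23cKO and Dmp1KO -0.12 (SE 0.07, adjusted p = 0.235). Within cluster 3, Dusp6 had 44.4 to 56.2 CPM in WT and 51.0 and 51.8 CPM in Dmp1KO, a log2 difference of 0.05 (SE 0.18, adjusted p = 0.86), and it was higher in Fgf23cKO than in WT by 0.60 (SE 0.17, adjusted p = 0.013). The clusters themselves lay far apart in Dusp6: cluster 1, mostly WT, had 245 CPM in WT, and cluster 4, mostly Dmp1KO, had 13.5 CPM in Dmp1KO. In other clusters the pooled Dusp6 level, given with no test, was lower in Dmp1KO than in WT: 155 against 245 CPM in cluster 1, with 29 Dmp1KO cells, 74.2 against 109 CPM in cluster 5 and 48.7 against 138 CPM in cluster 14. The same held outside the class, at 27.9 against 113 CPM and 25.8 against 94.2 CPM in clusters 9 and 11, cycling cells with macrophage markers, and at 10.5 against 38.0 CPM in cluster 2, an unnamed cluster.

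Etv5, Spry2 and Spred1 did differ within cluster 3. There Etv5 was lower in Dmp1KO than in WT by -1.08 on the log2 scale (SE 0.18, adjusted p = 5.3e-05), with 25.8 and 29.2 CPM against 56.2 to 63.9 CPM, and higher in Dmp1KO/Fgf23cKO than in Dmp1KO by 0.43 (SE 0.13, adjusted p = 0.029). Spry2 was lower by -1.17 (SE 0.39, adjusted p = 0.026) and Spred1 by -0.51 (SE 0.13, adjusted p = 0.0053) in Dmp1KO compared with WT. Spred1 was lower than in WT in Fgf23cKO (-0.52, adjusted p = 0.0053) and Dmp1KO/Fgf23cKO (-0.72, adjusted p = 2.1e-04) as well. Of all 10230 genes tested within cluster 3, 16.9% were higher and 17.5% lower in Dmp1KO than in WT, 11.8% and 13.6% in Fgf23cKO, and 14.4% and 16.4% in Dmp1KO/Fgf23cKO, and 8.26% were higher and 11.2% lower in Dmp1KO/Fgf23cKO than in Dmp1KO. Within cluster 0 none of the 7 genes tested was called by edgeR between any genotype and WT, with an unadjusted p under 0.05 for 1, 0 and 1 of them in Fgf23cKO, Dmp1KO and Dmp1KO/Fgf23cKO, where 5.82 to 7.27% of the 11878 genes tested were higher and 2.62 to 3.88% lower. Between Dmp1KO/Fgf23cKO and Dmp1KO the call on Dusp4 was higher (0.74, adjusted p = 5.6e-04) and that on Spred1 lower (-0.41, adjusted p = 2.7e-04), against 10.6% and 12% of all genes. Without clusters 4 and 7, which were mostly Dmp1KO (30.2% of all genes higher and 27.9% lower), Dusp6 remained lower in Dmp1KO than in WT (-1.26, SE 0.08, adjusted p = 4.2e-10), as did Etv5 (-0.92, SE 0.09, adjusted p = 5.1e-08) and Spry2 (-1.01, SE 0.11, adjusted p = 2.6e-07), while Spred1 stood at 0.12 (adjusted p = 0.204) and Dusp4 turned to -0.38 (adjusted p = 0.023). Compared with Dmp1KO, Dusp6 was then higher in Dmp1KO/Fgf23cKO by 0.38 (SE 0.08, adjusted p = 0.0011) and Spred1 differed by 0.02 (adjusted p = 0.85). Whether the difference between Dmp1KO and WT itself differed between the clusters was not tested, and the clusters are defined by other genes of the same cells.

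**Figure D4:**
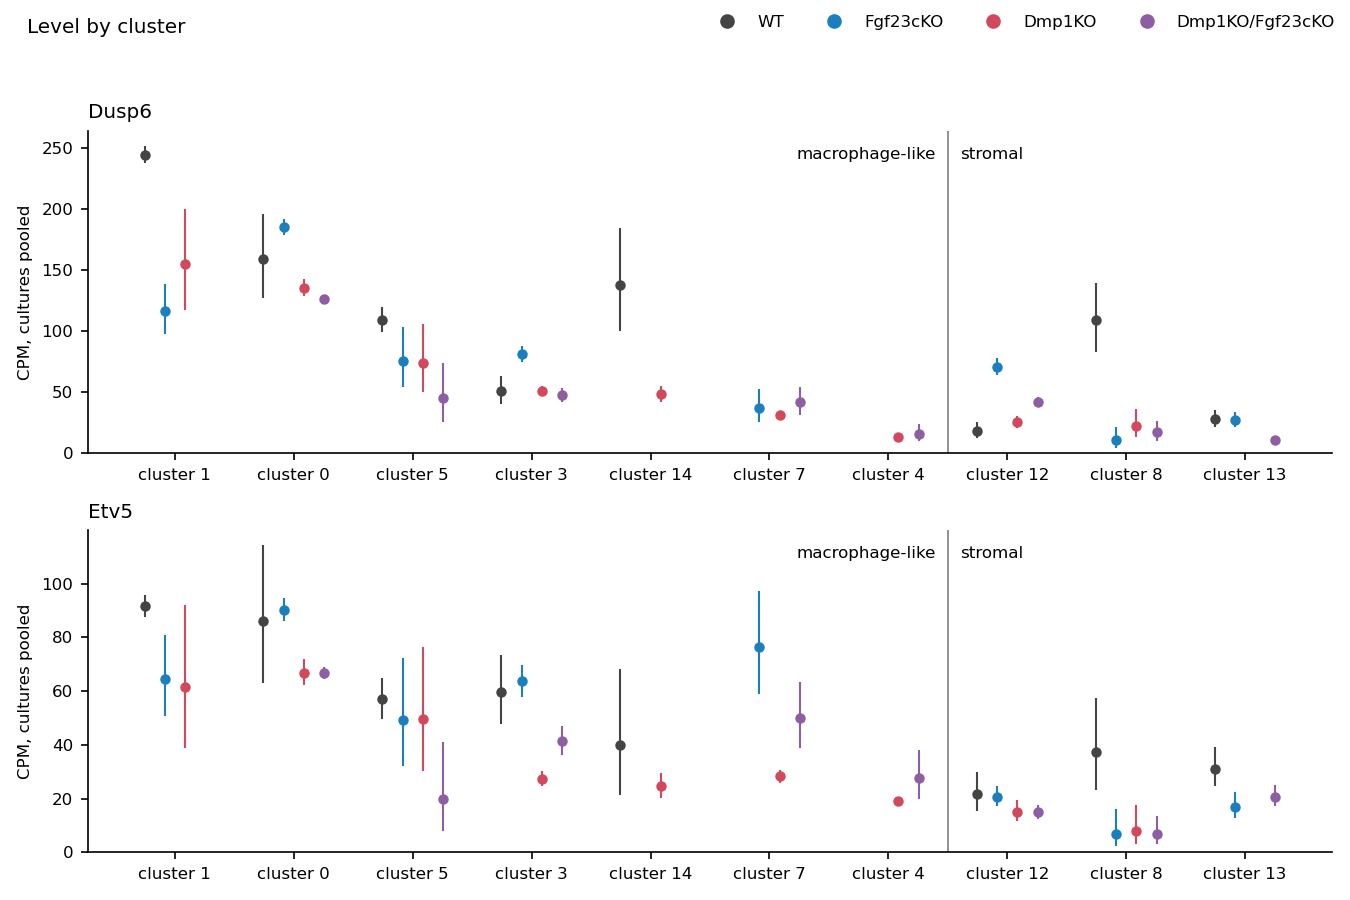
Level of Dusp6 and of Etv5 in CPM with cultures pooled (vertical axis, starting at 0) in each macrophage-like and stromal cluster, by genotype, with exact 95% Poisson intervals as lines. Dusp6 spans 13.5 CPM in cluster 4 of Dmp1KO to 245 CPM in cluster 1 of WT, while the 4 genotypes lie between 47.6 and 81.6 CPM in cluster 3.

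**Figure D5:**
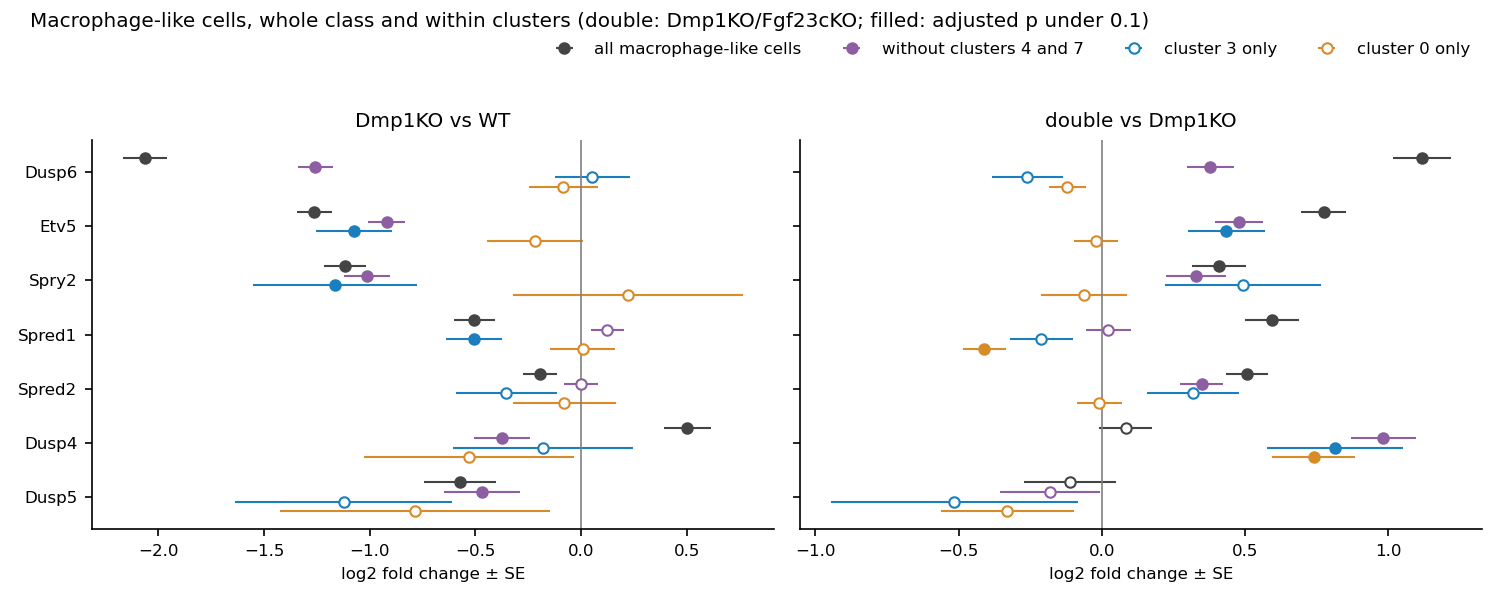
Log2 difference (horizontal axis, with the standard error as a line) of 7 of the genes in macrophage-like cells between Dmp1KO and WT and between Dmp1KO/Fgf23cKO and Dmp1KO, over the whole class, within cluster 0, within cluster 3 and without clusters 4 and 7, filled where the adjusted p is under 0.1. For Dmp1KO compared with WT, Dusp6 lies at -2.06 over the whole class and at -0.09 and 0.05 within clusters 0 and 3, and Etv5 at -1.08 within cluster 3.

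In stromal cells, where fewer cells and UMIs stood behind each value, few of the genes passed the test between genotypes. In Dmp1KO compared with WT, 0 genes were higher and 2 lower (12.9% and 11.4% of the 12505 genes tested), these being Spry2 and Etv5. In Fgf23cKO compared with WT 1 was higher, Dusp4, and 0 lower (8.98% and 6.49% of all genes), and in Dmp1KO/Fgf23cKO compared with WT 0 were higher and 1, Etv5, lower (9.86% and 10.2%). Between Dmp1KO/Fgf23cKO and Dmp1KO no gene was called by edgeR in either direction (4.90% and 5.65% of all genes), DESeq2 called 1 (Spry1, 1.24, adjusted p = 0.068), and 4 (Spred2, Spry1, Spry2 and Spry4) had an unadjusted p under 0.05. The median log2 difference over the 10 genes was -0.71 in Dmp1KO compared with WT (0.01 over all genes) and 0.42 in Dmp1KO/Fgf23cKO compared with Dmp1KO (-0.02 over all genes), and 0.12 in Fgf23cKO and 0.05 in Dmp1KO/Fgf23cKO compared with WT. After thinning to 1300 UMIs none of the 10 genes passed the filter on low counts in stromal cells. The makeup of the class differed as well. Cluster 13, led by osteoblast genes, held 42.4 to 59.6% of the stromal UMIs in WT and 4.83 and 9.14% in Dmp1KO. With cluster 13 left out, 4 of the 10 genes were called in Dmp1KO compared with WT. Of all genes, 8.17% were then higher and 7.8% lower. The part of this makeup in the stromal differences was otherwise not tested.

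Etv5 in stromal cells had 20.6, 32.7 and 31.3 CPM in WT, 17.01, 23.0 and 14.8 CPM in Fgf23cKO, 15.2 and 12.6 CPM in Dmp1KO and 17.4, 18.5 and 10.9 CPM in Dmp1KO/Fgf23cKO. Dmp1KO and Dmp1KO/Fgf23cKO lay below WT without overlap, by log2 differences of -1.08 (SE 0.32, adjusted p = 0.039) and -0.90 (SE 0.26, adjusted p = 0.046), and these calls were lost without Dmp1KO replicate 2 or 3 (-1.24 and -1.01) or WT replicate 3 (-0.93), and without Dmp1KO/Fgf23cKO replicate 3 (-0.72) or WT replicate 2 or 3 (-0.83 and -0.74). Spry2 had 16.3, 12.1 and 11.7 CPM in WT and 1.42 and 4.19 CPM in Dmp1KO, a log2 difference of -2.18 (SE 0.50, adjusted p = 0.013) that was lost without Dmp1KO replicate 2 (-1.73, adjusted p = 0.104). Dusp4 had 7.09, 5.60 and 7.38 CPM in WT and 11.99, 14.4 and 26.1 CPM in Fgf23cKO, higher by 1.30 (SE 0.41, adjusted p = 0.071), and this call was lost without any 1 of the WT replicates or without Fgf23cKO replicate 2 or 3 (0.91 to 1.44).

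Dusp6 in stromal cells had 21.3, 46.6 and 35.6 CPM in WT, 53.9, 40.6 and 71.1 CPM in Fgf23cKO, 28.5 and 20.3 CPM in Dmp1KO and 33.7, 26.1 and 28.1 CPM in Dmp1KO/Fgf23cKO. The genotypes overlapped WT, and the log2 difference between Dmp1KO and WT was -0.55 (95% interval -1.19 to 0.08, adjusted p = 0.272), which was called without WT replicate 1 (-0.88, adjusted p = 0.052). Macrophage markers in the same stromal sums reached 5.34 to 19.4% of their level in the macrophage-like cells of the culture. In every genotype, the culture with the higher macrophage marker share also had the higher stromal Dusp6: in WT the marker shares were 5.78, 19.4 and 9.21%, and in Dmp1KO 13.9 and 8.71%, in the order of the CPM above. Stromal Dusp6 was 10.2 to 22.5% of the macrophage level in WT, 25.02 to 58.7% in Fgf23cKO, 43.0 and 78.7% in Dmp1KO and 23.5 to 29.5% in Dmp1KO/Fgf23cKO. The part of macrophage RNA in stromal Dusp6, Etv5, Spry2 and Dusp4 was not tested. With the cells that held as many macrophage as stromal marker UMIs left out, stromal Dusp6 was higher in Fgf23cKO than in WT (1.05, adjusted p = 0.018).

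The genes held mainly by stromal cells were not called between genotypes there. Spry1 had 40.4, 16.8 and 15.2 CPM in WT, 14.8, 25.6 and 21.0 CPM in Fgf23cKO, 10.4 and 15.5 CPM in Dmp1KO and 22.4, 29.8 and 40.7 CPM in Dmp1KO/Fgf23cKO, with Dmp1KO/Fgf23cKO above Dmp1KO without overlap (1.195, 95% interval 0.41 to 1.98, adjusted p = 0.106). Spry4 had 4.66 to 12.8 CPM in WT, 12.8 to 17.9 CPM in Fgf23cKO, 4.19 and 7.60 CPM in Dmp1KO and 6.96 to 16.2 CPM in Dmp1KO/Fgf23cKO. Il17rd had 2.80 to 4.34 CPM in WT, below the 6.76 to 8.19 CPM of Fgf23cKO (0.96, 95% interval 0.13 to 1.78, adjusted p = 0.186), 6.17 and 6.45 CPM in Dmp1KO and 3.18 to 8.88 CPM in Dmp1KO/Fgf23cKO. Spred1 ranged from 75.1 to 110.1 CPM, Spred2 from 19.0 to 42.5 CPM and Dusp5 from 2.73 to 10.6 CPM over all stromal sums.

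The stromal clusters differed as well. In cluster 12, which held 30.6 to 80.6% of the stromal UMIs, Dusp6 had 18.4 to 18.5 CPM in WT, 47.0 to 87.8 CPM in Fgf23cKO, 22.7 and 29.5 CPM in Dmp1KO and 38.4 to 44.4 CPM in Dmp1KO/Fgf23cKO, so that WT was the lowest, with log2 differences from WT of 1.98 (adjusted p = 0.0017), 0.51 (adjusted p = 0.366) and 1.17 (adjusted p = 0.019). Of all genes tested there, 5.89 to 7.76% were called in each direction in these comparisons. In cluster 8, WT had the highest pooled level, at 109 CPM, against 11.1, 22.8 and 17.3 CPM in Fgf23cKO, Dmp1KO and Dmp1KO/Fgf23cKO. Of all 5115 genes tested there, 14.2, 9.46 and 15.5% were higher and 10.9, 3.32 and 10.6% lower than in WT, in that order. This cluster was shallow, with a median of 2532 UMIs. Stromal markers were found in a mean share of 0.357 of its cells and macrophage markers in 0.285. In cluster 12, with a median of 52611 UMIs, these shares were 0.844 and 0.598. The part of macrophage RNA in the Dusp6 of either cluster was not tested. Cluster 13, led by osteoblast genes, held 101 of the 285 tagged stromal cells in WT and 6 of 200 in Dmp1KO.

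The question of whether a genotype moved a gene alike in both lineages was tested directly, as the difference between the 2 classes in the same cultures. Dusp6 differed in 2 of the 4 comparisons: the change in Dmp1KO compared with WT was more negative in macrophage-like than in stromal cells by -1.50 on the log2 scale (SE 0.37, adjusted p = 0.019), and the change between Dmp1KO/Fgf23cKO and Dmp1KO more positive by 0.93 (SE 0.34, adjusted p = 0.095). In Dmp1KO compared with WT, 0 of the 10 genes had a more positive and 1 a more negative change in macrophage-like cells, where 9.97% and 4.43% of all genes did. Between Dmp1KO/Fgf23cKO and Dmp1KO, 2 genes (Dusp6 and Il17rd) were more positive and 0 more negative (8.41% and 10.1% of all genes). In Dmp1KO/Fgf23cKO compared with WT, 1 gene, Spry1, was more positive by 2.07 (SE 0.45, adjusted p = 0.033) and 0 more negative (2.31% and 0.848%), a call on 6 and 72 macrophage UMIs that was lost without Dmp1KO/Fgf23cKO replicate 1 or 2 or any WT replicate (1.78 to 2.08). In Fgf23cKO compared with WT no gene was called by edgeR (0.876% and 0.390% of all genes), DESeq2 called 1, and Dusp6 stood at -1.15 (SE 0.30, adjusted p = 0.125). Of the 10 genes, 3 (Dusp6, Spry1 and Etv5) had an unadjusted p under 0.05 there.

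For Etv5 the change in Dmp1KO compared with WT was -1.26 in macrophage-like and -1.08 in stromal cells, and the difference between the classes was -0.14 (95% interval -0.74 to 0.47). For Spry2 it was -1.12 and -2.18, a difference of 1.10 (0.07 to 2.13, adjusted p = 0.222). Macrophage markers in the stromal sums reached 5.34 to 19.4% of their level in macrophage-like cells. The part of macrophage RNA in stromal Etv5 and Spry2 was not tested. The test of the difference between classes was tried on simulated counts with a fixed spread, for genes over 20 CPM in both classes. It found 19.2% of those whose change differed between the classes by 1 on the log2 scale and 94.1% of those that differed by 2. In the simulation, differences of the former size were thus mostly not found. Changes of these sizes were given there to 99 and 101 of 14345 genes, whereas 9.97% and 4.43% of all genes were called in these data. The shares found may therefore not hold for the test on these data. In stromal cells of Dmp1KO, Etv5 and Spry2 also lay below 20 CPM, at means of 13.9 and 2.81 CPM. The Dusp6 call in Dmp1KO compared with WT was lost without Dmp1KO replicate 2 (-1.12, adjusted p = 0.231), without clusters 4 and 7 (-0.72, adjusted p = 0.337) and with cells thinned to 1300 UMIs (-0.74, adjusted p = 0.897), and with the macrophage-like cells of cluster 0 only the sign turned (0.76, adjusted p = 0.267). The Dusp6 call between Dmp1KO/Fgf23cKO and Dmp1KO was lost in 6 of 11 settings that left out a culture (0.54 to 0.93), among them each Dmp1KO/Fgf23cKO replicate, and that of Il17rd, which rests on 26 and 9 macrophage UMIs, in 4 of them (1.80 to 2.31).

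Other genes of the pathway were taken from lists of known members and moved in both directions. Of 12 further ERK output genes, 10 were tested in macrophage-like cells. In Dmp1KO compared with WT, 2 of these were higher and 5 lower (36.1% and 34.4% of all genes), with Etv1, an ETS factor, at -1.73, Dusp7 at -1.11, Ier3 at -1.02, Ccnd1 at -0.45 and Spred3 at -1.99, and with Phlda1 at 2.16 and Epha4 at 1.64. Between Dmp1KO/Fgf23cKO and Dmp1KO, 5 were higher in the former (Etv1 1.15, Dusp7 1.00, Ier3 1.24, Ccnd1 0.44 and Epha2 1.26) and 2 lower (Phlda1 -1.06 and Epha4 -1.07), against 30.8% and 37.8% of all genes. In Dmp1KO/Fgf23cKO compared with WT, Phlda1 (1.11) was higher and Etv1 (-0.59) and Spred3 (-1.28) lower (27.9% and 28.2% of all genes). In Fgf23cKO compared with WT, Ccnd1 (0.53) and Phlda1 (0.58) were higher and Etv1 (-0.44) and Ier3 (-0.33) lower (24.0% and 23.6%). In stromal cells 11 were tested. In Dmp1KO compared with WT, Etv1 (-1.25) and Dusp7 (-1.05) were lower and Etv4 (1.58) and Ccnd1 (0.58) higher (11.4% and 12.9% of all genes). In Dmp1KO/Fgf23cKO compared with WT, Etv1 (-1.18) and Phlda1 (-0.62) were lower and Etv4 (1.42) and Ccnd1 (0.59) higher (10.2% and 9.86% of all genes). In Fgf23cKO compared with WT, Etv4 (1.43), Ccnd1 (0.57) and Fosl1 (0.96) were higher and 0 lower (8.98% and 6.49%). Between Dmp1KO/Fgf23cKO and Dmp1KO 0 were called, where 4.90% of all genes were higher and 5.65% lower.

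The 20 RAS-ERK cascade genes split in Dmp1KO compared with WT into 7 higher and 7 lower in macrophage-like cells, shares close to those of all genes (36.1% and 34.4%), with Hras at 1.54 and Map2k2, which encodes an ERK kinase, at 0.89 among the higher and Gab1, which encodes an adaptor, at -0.79 among the lower. The genes named from this list and the next 2 lists were chosen after their values were seen. In stromal cells 3 were higher and 2 lower (12.9% and 11.4% of all genes). Of 10 receptors, 5 were tested in macrophage-like cells, where 1 was higher (Fgfr1, 2.67) and 3 lower (Fgfr2 -1.73, Egfr -0.91 and Insr -0.51) in Dmp1KO compared with WT. Fgfr1 was far lower in macrophage-like than in stromal cells, by -7.64 in WT and -5.24 in Dmp1KO on the log2 scale. The part of stromal RNA in it was not tested. In stromal cells 7 receptors were tested, with 0 higher and 2 lower, and Fgfr1 was not called (0.26). Of the 16 early-response genes, which rise when cells are dissociated, 15 were tested in macrophage-like cells. In Dmp1KO compared with WT, 3 were higher (Atf3 1.24, Jund 1.13 and Btg2 0.56) and 7 lower, with Egr1 at -2.12 and Fos at -0.90 among the latter. Between Dmp1KO/Fgf23cKO and Dmp1KO 10 were higher and 2 lower, where 30.8% of all genes were higher and 37.8% lower. Their summed level in macrophage-like cells was 2191 to 2559 CPM in WT, 2375 to 2752 CPM in Fgf23cKO, 1817 and 1820.3 CPM in Dmp1KO and 2484 to 2511 CPM in Dmp1KO/Fgf23cKO, lowest in the genotype with the lowest Dusp6, and its part in the Dusp6 result was not tested.

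Across the 11 tagged cultures, which share 4 reactions, the log2 level of Dusp6 in macrophage-like cells went with that of Etv5 (Pearson r = 0.977), Spry2 (r = 0.953), Spred1 (r = 0.820), Dusp5 (r = 0.698) and Spred2 (r = 0.583) and not with that of Dusp4 (r = -0.02). In stromal cells r was 0.242 with Etv5 and 0.520 with Dusp4. These values describe the cultures and hold the differences between genotypes. Of 6240 genes outside the set with a mean of at least 20 CPM in macrophage-like cells, Sgpp1 (r = 0.996), BC005537 (r = 0.995), Fam3c (r = 0.994), Csnk1a1 (r = 0.993) and Snx2 (r = 0.992) were most like Dusp6, and of 6740 in stromal cells Dgkz (r = 0.936), Bcl2l1 (r = 0.902), Aoah (r = 0.866), Slc17a5 (r = 0.862) and Mphosph8 (r = 0.856).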

How the data were processed

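Single-cell RNA sequencing (10x 3′ v3 with CellPlex tags) was deposited as UMI counts per gene and cell for 16 samples, which the authors made with Cell Ranger 7.0.1 and Seurat on mm10, per the submitters' processing notes, with multiplets removed by tag. Multiplets within a culture remain, and no doublet caller was run. For 15 samples, cells were grouped into clusters (Seurat 5.3.0, sctransform 0.4.2 and R 4.3.3, with 3000 variable genes, 30 components, resolution 0.8), leaving out the genes described and their pathway. The UMIs of each class were added up within each tagged culture (at least 10 cells) and tested with edgeR 4.0.16 (TMM factors, filterByExpr, quasi-likelihood test, Benjamini-Hochberg over all genes tested, threshold 0.1 as in the study). The class comparisons held the culture as a block. DESeq2 1.42.0, other filters, clusterings and depths, and each culture left out were alternatives. The tests were tried on simulated counts. Named were the 10 genes, further output genes past the threshold, and the 5 genes with the highest correlation with Dusp6. Some cascade, receptor and early-response genes were also named, after their values were seen. The genes and lists were chosen with earlier results of these data known.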

Additional observations from a re-analysis of the deposited data

Results flagged for a closer look

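The change between genotypes differed between macrophage-like and stromal cells in 4 of the tests of that difference (edgeR, adjusted p under 0.1). Values are the log2 change in macrophage-like minus that in stromal cells. The tests covered 10 genes in each of 4 comparisons. In Dmp1KO compared with WT, 9.97% of all genes had a more positive and 4.43% a more negative change. The shares were 8.41% and 10.1% in Dmp1KO/Fgf23cKO compared with Dmp1KO. They were 2.31% and 0.848% in Dmp1KO/Fgf23cKO and 0.876% and 0.390% in Fgf23cKO, each compared with WT. Dusp6 in Dmp1KO compared with WT stood at -1.504 and Dusp6 in Dmp1KO/Fgf23cKO compared with Dmp1KO at 0.926. Spry1 in Dmp1KO/Fgf23cKO compared with WT stood at 2.067, and Il17rd in Dmp1KO/Fgf23cKO compared with Dmp1KO at 2.197, of whose 26 macrophage UMIs in Dmp1KO/Fgf23cKO 13 were in replicate 3. Each of the 4 calls was lost after thinning, and in at least 1 of the settings that left out a culture.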

How the results depend on the processing

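The share of all genes called is given above for the main fits and for fits of 1 class on some clusters. For the other settings of this section it is not given here, so their counts cannot be set against it. The number of the 10 genes called moved most with depth and with the cells counted. In macrophage-like cells it was 5, 7, 7 and 6 for Fgf23cKO, Dmp1KO and Dmp1KO/Fgf23cKO compared with WT and Dmp1KO/Fgf23cKO compared with Dmp1KO. With cells thinned to 1300 UMIs the first 3 were 2, 4 and 4. Within cluster 0 the 4 counts were 0, 0, 0 and 2, and within cluster 3 they were 3, 3, 3 and 2. In stromal cells the counts were 1, 2, 1 and 0. For Fgf23cKO this became 2 without a low-count filter, with cells rich in the other class's markers left out, at resolution 1.2, with the genes kept in the clustering and in cluster 8 only, 4 with untagged samples, and 0 at an adjusted p under 0.05, at resolution 0.4, with log-normalized clustering and without cluster 13. For Dmp1KO it was 5 at resolution 0.4, 4 without cluster 13 and 0 in cluster 8. For Dmp1KO/Fgf23cKO compared with Dmp1KO it was 1 with DESeq2 or untagged samples, 3 without a filter or with log-normalized clustering, and 2 with marker-rich cells left out, at resolution 0.4 or 1.2 and with the genes kept in the clustering. Between the classes 9 genes were called, and 4 after thinning.

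The counts for the difference between classes were 0, 1, 1 and 2. The first became 1 with DESeq2, no filter, untagged samples, marker-rich cells left out, resolution 1.2, the genes kept in the clustering, cluster 0 or cluster 12 only, and 3 with cluster 8. The second became 3 with untagged samples, 2 with cluster 0, cluster 12 or no cluster 13, and 0 after thinning or with cluster 8. The third became 0 with DESeq2, thinning or cluster 8 and 2 with no filter, marker-rich cells left out or cluster 12. The last became 1 with RLE factors, DESeq2, resolution 0.4, log-normalized clustering, cluster 2 counted, cluster 12 or no cluster 13, and 0 at an adjusted p under 0.05, after thinning, with cluster 0 or 8 and without clusters 4 and 7. Alternatives by cluster were chosen after seeing the data, and the cause of these moves was not tested.

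Leaving out each culture gave 4 to 6, 6 to 7, 7 and 6 to 8 calls in macrophage-like cells, 0 to 1, 0 to 3, 0 to 1 and 0 to 1 in stromal cells, 9 between classes, and 0 to 1, 0 to 1, 0 to 1 and 0 to 2 for the difference between classes. The replicate numbers did not pair the cultures (r of same-numbered cultures -0.547 to 0.315 in macrophage-like cells, 2 of 15 pairs over 0.1), and with the replicate number as a block the counts were 5, 7, 7 and 6, and 1, 2, 1 and 0.

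The sign turned in 30 values for which the gene was called in the main fit, in the alternative or in both. Turns of values called in neither are not counted. In macrophage-like cells, Fgf23cKO compared with WT, Dusp6 was 0.35 and Spred2 -0.056 in cluster 0, and Spred1 -0.52 and Dusp6 0.60 in cluster 3. In Dmp1KO compared with WT, Spred2 was 0.12 after thinning, Spred1 0.0078, Dusp4 -0.53 and Spry2 0.22 in cluster 0, Dusp4 -0.18 and Dusp6 0.053 in cluster 3, and Spred1 0.12 and Dusp4 -0.38 without clusters 4 and 7. In Dmp1KO/Fgf23cKO compared with WT, Spred2 was -0.088 and Spry2 0.16 in cluster 0, and Spred1 -0.72 and Spred2 -0.033 in cluster 3. Compared with Dmp1KO, Spred1 was -0.41, Dusp6 -0.12, Spred2 -0.0090, Spry2 -0.062 and Etv5 -0.020 in cluster 0, and Spred1 -0.21 and Dusp6 -0.26 in cluster 3. In stromal cells Dusp6 was -2.72 in cluster 8 (Fgf23cKO) and 1.17 in cluster 12 (Dmp1KO/Fgf23cKO) compared with WT. For the difference between classes, Dusp6 was 2.15 with cluster 8 (Fgf23cKO), Dusp6 0.76 and Etv5 1.23 with cluster 0 (Dmp1KO), and Dusp6 -0.31 with cluster 0 and Il17rd -4.80 with cluster 8 (Dmp1KO/Fgf23cKO compared with Dmp1KO). RLE factors moved the median of all genes between classes to -0.108.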

Other observations

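Cells outside the compared classes also held these transcripts. In the cycling cells with macrophage markers, pooled Dusp6 was 113, 102, 27.9 and 62.5 CPM in WT, Fgf23cKO, Dmp1KO and Dmp1KO/Fgf23cKO in cluster 9 and 94.2, 62.8, 25.8 and 56.8 CPM in cluster 11, and Etv5 was 89.0, 72.4, 24.5 and 51.8 CPM in cluster 9. In cluster 2, an unnamed cluster led by the stress genes Ddit3 and Trib3, Dusp6 was 38.0, 18.4, 10.5 and 16.2 CPM and Dusp4 28.7, 60.3, 21.8 and 42.5 CPM. The osteoclast-like cells of WT held 414 CPM of Spred1, 36.6 CPM of Dusp6 and 18.3 CPM of Etv5.

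In the untagged samples, 1 per genotype, Dusp6 in macrophage-like cells was 206, 145, 39.2 and 107 CPM, and in stromal cells 40.8, 51.0, 26.8 and 19.4 CPM, for WT, Fgf23cKO, Dmp1KO and Dmp1KO/Fgf23cKO.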
